A study of Mus musculus with 12 samples.

Results

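Transcripts of 9 genes of the myogenic transcription factor network were followed in denervated mouse calf muscle: the myogenic regulatory factors Myod1, Myog and Myf6, the MEF2 factors Mef2a, Mef2c and Mef2d, and the inhibitors of DNA binding Id1, Id2 and Id3. They were taken by gene symbol, and each of the 9 is listed in both tables, which hold 25094 genes each. All 9 passed the filter on low values in both strains, and each had a mean above it in both legs. The gastrocnemius, a calf muscle, came from wild-type males of 2 inbred strains, C57BL/6 and BALB/c, and polyadenylated RNA was sequenced. The right sciatic nerve had been cut and its ends folded back and fixed to nearby muscle, and the muscle was taken 2 weeks later. The left leg, which the labels call healthy, was the comparison in each strain. The protocol mentions sham operations without saying which legs received them. Strain and leg gave 4 groups of 3 libraries, 12 in all. The labels give neither the age of the mice nor whether each library is another mouse, so p-values measure only how far these libraries vary, which may be technical variation.

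Myogenic regulatory factors are basic helix-loop-helix activators that pair with E proteins and bind the E-box, a short palindromic element in the promoters of muscle genes. MEF2 factors bind a separate A/T-rich element and act with them on many of the same promoters, and class IIa histone deacetylases hold MEF2 factors inactive. Id proteins carry the helix-loop-helix but no DNA-binding region, so they take E proteins out of active pairs, and their genes are classical targets of BMP signalling. In innervated adult muscle Myod1 and Myog are low and Myf6 is the main myogenic regulatory factor, and loss of nerve activity is known to raise Myod1 and Myog and, through Myog, the fetal subunits of the acetylcholine receptor.

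RefSeq promoter entries (GRCm38.p6) were found for 6 of the 9 members, namely Myog, Mef2a, Mef2c with 3 entries, Mef2d, Id2 and Id3. Those of Myog, Id2 and Id3 are shown because these members rose in both strains under every alternative tried. Each holds the 250 bases before the annotated start, 5′ to 3′ on the strand of the gene, with motif matches in capitals. They lie at chr1:134289754-134290003 on the plus strand for Myog, chr12:25096093-25096342 on the minus strand for Id2 and chr4:136143572-136143821 on the plus strand for Id3.
Myog: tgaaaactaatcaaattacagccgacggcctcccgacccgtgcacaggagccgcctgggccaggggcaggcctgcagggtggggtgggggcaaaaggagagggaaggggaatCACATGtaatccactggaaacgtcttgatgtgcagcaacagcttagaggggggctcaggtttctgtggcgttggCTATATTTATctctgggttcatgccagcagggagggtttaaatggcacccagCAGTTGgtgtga
Id2: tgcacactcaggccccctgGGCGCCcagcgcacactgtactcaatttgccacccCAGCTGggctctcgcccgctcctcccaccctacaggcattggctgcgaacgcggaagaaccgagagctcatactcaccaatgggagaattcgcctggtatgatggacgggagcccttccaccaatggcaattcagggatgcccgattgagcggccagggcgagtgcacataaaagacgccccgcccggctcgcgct
Id3: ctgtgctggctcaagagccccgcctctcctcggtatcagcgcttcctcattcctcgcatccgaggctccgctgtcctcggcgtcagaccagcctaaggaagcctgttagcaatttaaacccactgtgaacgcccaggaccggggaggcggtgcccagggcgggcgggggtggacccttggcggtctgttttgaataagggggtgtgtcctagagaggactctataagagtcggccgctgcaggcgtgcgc
The E-box was searched as CANNTG, where N is any base. Myog held 2 of them. The far one, CACATG, lies 138 to 133 bases before the start, and the near one, which reads CAGTTG, lies 12 to 7 bases before it. The remaining stretch in capitals, CTATATTTAT at 64 to 55, matches the MEF2 site with the last base left free, a relaxed form chosen after the sequences were seen. Id2 held the E-box CAGCTG at 196 to 191 and GGCGCC, a GC-rich motif bound by SMAD1, at 231 to 226. Neither motif nor the MEF2 site was matched in the windows of Id3, Mef2a and Mef2d. Mef2c held 2 E-boxes in its first window, CAAGTG starting 234 bases and CATATG starting 100 bases before the start, 1 in the last (CAGATG), and none in the other, and its first window held the relaxed MEF2 form GTAATTTTAA at 146 to 137. Both strands were searched over windows of the same length. Of 32851 promoters, 66.2% held an E-box, 2.92% the MEF2 site in full, 7.03% the relaxed form and 9.59% GGCGCC. A match is a description of letters and says nothing on binding.

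Values are RPKM, reads divided by transcript length and by library depth, as the authors deposited them. A change is the right-leg value less the left-leg value in log2(RPKM + 0.5), given with its SE, and adjusted p-values are from limma over all tested genes, two-sided, with a call at an adjusted p under 0.05. The libraries held 14826932 to 17323390 reads in listed genes. The scale differed between the legs. The median tested gene differed by 0.52 in C57BL/6 and 0.38 in BALB/c, right above left, and 63.6% of tested genes were called higher and 8.56% lower in C57BL/6, and 42.5% and 7.67% in BALB/c. Under median-of-ratios rescaling, which sets the median gene near 0, 28.2% were called higher and 26.6% lower in C57BL/6, and 21.8% and 19.2% in BALB/c. Each change is therefore followed by its rescaled value where that alters the reading. The BALB/c right library 2 stood apart, with a summed RPKM of 598695 where the other 11 lay between 426429 and 510635, and the C57BL/6 left library 1 had a summed level of Schwann cell markers of 190.4 RPKM against 6.73 and 23.9 in the other left libraries. The muscle-defining genes, Acta1, Ckm, Myh4, Tnnt3, Mylpf, Tnni2 and Actn3, were above 0 in every library, but their sum was lower in the right legs without overlap, at 65830 to 73940 against 141000 to 151400 RPKM in C57BL/6 and 55240 to 78990 against 99880 to 134700 RPKM in BALB/c. As deposited, all 7 genes were called lower in C57BL/6. In BALB/c 2 were called lower and 5 were not called. Actn3, not called there, was at 2540 RPKM on the left and 3840 RPKM on the right. The part of the lower muscle-gene sum in the members' values was not tested.

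In C57BL/6, 8 of the 9 members were called higher in the right leg, none was called lower, and Mef2d was not called, against 63.6% of all tested genes called higher. The median change of the members was 2.52. After rescaling 6 were called higher (Myod1, Myog, Myf6, Mef2a, Id2 and Id3), 1 lower (Mef2d) and 2 not called (Mef2c and Id1), against backgrounds of 28.2% and 26.6%, and the median was 1.82. In BALB/c, 6 were called higher, none lower and 3 not called (Mef2c, Mef2d and Id1), with a median of 1.58, against 42.5% of all tested genes called higher. After rescaling the 5 higher were Myod1, Myog, Myf6, Id2 and Id3, Mef2d was called lower, and Mef2a, Mef2c and Id1 were not called, with a median of 1.07 and backgrounds of 21.8% higher and 19.2% lower. The legs did not overlap, right above left, for 8 of 9 members in C57BL/6 and 7 of 9 in BALB/c, where 66.2% and 48.1% of all tested genes showed this.

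The myogenic regulatory factors were all called higher in both strains. Their summed level went from a mean of 75.9 to 779 RPKM in C57BL/6 and from 72.6 to 837.5 RPKM in BALB/c. Myog, the factor that drives terminal differentiation of myoblasts (NM_031189, mm9 chromosome 1, 136186581 to 136189125), had 2.22, 2.53 and 4.75 RPKM in the left and 91.1, 181 and 276 RPKM in the right C57BL/6 libraries. All right libraries lay far above the left ones, yet they also spread widely among themselves. The rise was 5.57 ± 0.41 (adjusted p = 2e-05, limma), the largest change of any member. BALB/c left libraries had 4.20, 5.08 and 6.64 RPKM and right libraries 119.7, 209.8 and 138 RPKM, again without overlap, a rise of 4.73 ± 0.24 (adjusted p = 1.2e-05).

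Myod1, which commits cells to the muscle lineage (NM_010866, mm9 chromosome 7, 53631844 to 53634462), had 7.04, 8.97 and 9.85 RPKM in the left and 99.8, 136 and 198 RPKM in the right legs of C57BL/6. The right libraries took the same order as for Myog, lowest in library 1 and highest in library 3, and stood clear of the left ones. The rise was 3.95 ± 0.24 (adjusted p = 8.8e-06, limma). In BALB/c the left values were 9.40, 14.6 and 18.0 RPKM and the right values 159, 141 and 358 RPKM. Right library 3 was the high one here, whereas Myog was highest in right library 2, and the legs did not overlap. The rise was 3.84 ± 0.37 (adjusted p = 0.00014).

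Myf6, also called MRF4, the factor of mature fibres (NM_008657, mm9 chromosome 10, 106929905 to 106931779, minus strand), was the most abundant member in all 4 groups. It had 57.4, 70.5 and 64.5 RPKM in the left and 527, 423 and 407 RPKM in the right C57BL/6 libraries. Its right libraries ran in the reverse order of Myod1 and Myog, highest in library 1. The rise was 2.80 ± 0.12 (adjusted p = 2.6e-06, limma), or 2.09 after rescaling. BALB/c had 50.7, 45.7 and 63.4 RPKM in the left and 484, 361 and 542 RPKM in the right legs, with no overlap and a rise of 3.10 ± 0.20 (adjusted p = 3.5e-05). Myf5, the remaining family member and a marker of satellite cells, was near the bottom of the scale at 0.876 ± 0.121 and 3.12 ± 0.201 RPKM in C57BL/6 and 1.00 ± 0.321 and 5.13 ± 2.10 RPKM in BALB/c (SD, n = 3 libraries each). It rose by 1.40 ± 0.10 (adjusted p = 1.9e-05) and 1.85 ± 0.31 (adjusted p = 0.00167).

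Satellite cells, the muscle stem cells, also express Myod1 and Myog once activated. The summed level of the 12 satellite cell markers was 39.9 to 42.3 RPKM in the left and 70.3, 92.2 and 95.9 RPKM in the right C57BL/6 libraries 1 to 3. Myod1, Myog, Id1 and Id2 also lay in that order, as did Mef2d by a slight margin. In BALB/c it was 54.9 to 71.8 RPKM in the left and 94.8, 100.6 and 107.5 RPKM in right libraries 1 to 3. Id1, Id2 and Id3 lay in that order there, but Myod1, Myog and the remaining members did not. The change in BALB/c less that in C57BL/6 was called for Cd34 (-1.14 ± 0.24) and Megf10 (-0.93 ± 0.14) of this list. In that comparison 4.33% of all tested genes were called lower and 1.76% higher. Of the 11 tested markers 8 rose in C57BL/6 and 6 in BALB/c, and 4 and 3 after rescaling, among them Sdc4 and Myf5. None was called lower as deposited, and 1 was in BALB/c after rescaling. Over all tested genes 63.6% and 42.5% were called higher as deposited, and 28.2% and 21.8% after rescaling. Pax7, which defines these cells, was not called in either strain, at 0.568 and 0.789 RPKM in C57BL/6 (adjusted p = 0.0868) and 0.692 and 0.565 RPKM in BALB/c (adjusted p = 0.529). The part of satellite cells in the rises was not tested. In bulk muscle, fewer cells of a type and less RNA per cell cannot be told apart.

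**Figure D1:**
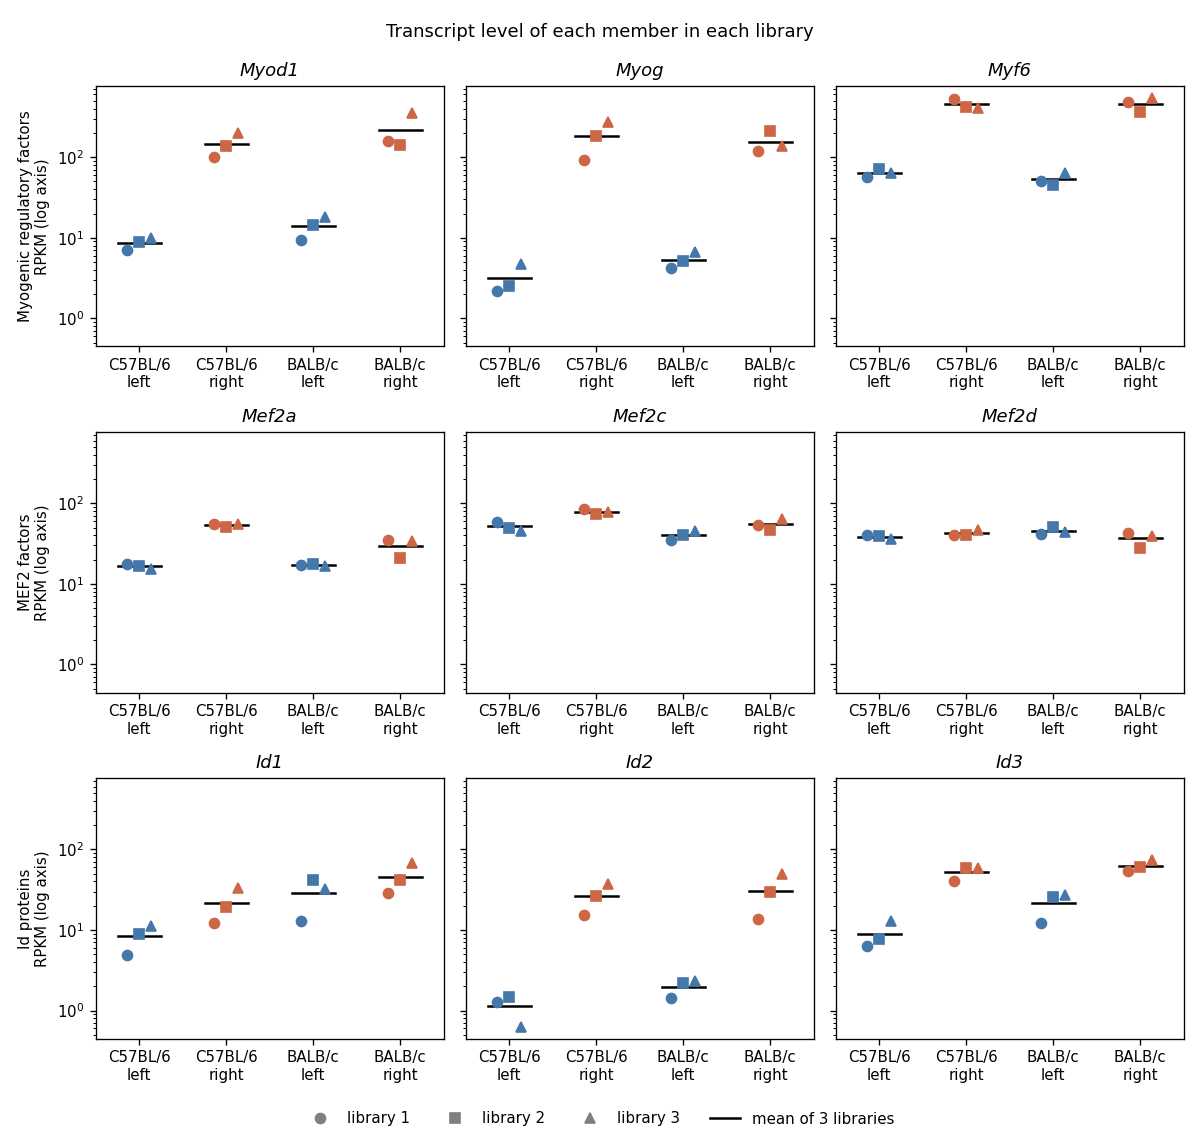
RPKM of the 9 members (log axis) in each of the 12 libraries, with left and right legs of C57BL/6 and BALB/c side by side; points are libraries and black lines are the means of 3 libraries. Myod1, Myog and Id2 leave no overlap between the legs in either strain, while the Mef2d libraries of both legs lie within 27.7 to 50.3 RPKM.

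The MEF2 family moved less, from a summed mean of 107 to 175 RPKM in C57BL/6 and from 102.5 to 122 RPKM in BALB/c, and its members did not move alike. Mef2a, a broadly expressed MEF2 factor (mm9 chromosome 7, 74376049 to 74517744, minus strand), had 17.9, 16.8 and 15.2 RPKM in the left and 54.8, 50.1 and 55.4 RPKM in the right C57BL/6 libraries. Both groups were tight and far apart. It rose by 1.66 ± 0.08 (adjusted p = 4.2e-06, limma), and by 0.95 after rescaling (adjusted p = 9.9e-05). The BALB/c left libraries were as tight, at 17.1, 17.6 and 16.7 RPKM, but the right ones had 34.8, 20.9 and 34.0 RPKM. Right library 2 lay close to the left legs, without overlapping them. The rise was 0.75 ± 0.20 (adjusted p = 0.0145). It was not called after median-of-ratios rescaling (0.24, adjusted p = 0.298), rescaling to a common sum (0.54, adjusted p = 0.140) or quantile normalization (0.13, adjusted p = 0.593), nor without right library 1 (adjusted p = 0.0512) or 3 (adjusted p = 0.0564). Without right library 2 it was 0.99 (adjusted p = 0.000646). The 2 tables list different transcripts of Mef2a, NM_001291195 of 5501 bases in C57BL/6 and NM_001291191 of 5507 bases in BALB/c.

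Mef2c, the MEF2 factor that maintains sarcomere genes in fibres (NM_001347573, mm9 chromosome 13, 83662655 to 83806684), had 59.3, 50.0 and 45.7 RPKM in the left and 85.3, 72.6 and 78.5 RPKM in the right C57BL/6 libraries. The legs did not overlap, and the deposited values rose by 0.61 ± 0.11 (adjusted p = 0.00172, limma), close to the median gene. The change was -0.11 after median-of-ratios rescaling (adjusted p = 0.472) and -0.03 after quantile normalization, so the direction rests on the scale. In BALB/c the left values were 35.4, 40.4 and 44.7 RPKM and the right values 54.3, 46.0 and 64.1 RPKM. The legs did not overlap there either, but the change of 0.44 ± 0.16 was not called (adjusted p = 0.0534). It was called without right library 2 (0.55, adjusted p = 0.0187) and was -0.08 after median-of-ratios rescaling (adjusted p = 0.664).

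Mef2d, whose muscle isoform escapes repression during differentiation (NM_001310593, mm9 chromosome 3, 87946294 to 87976013), had the smallest change of the members as deposited, but not after rescaling. It had 40.7, 39.2 and 35.6 RPKM in the left and 40.7, 40.7 and 47.3 RPKM in the right C57BL/6 libraries, and the legs overlapped slightly. The change was 0.15 ± 0.09 (adjusted p = 0.158, limma) as deposited. After median-of-ratios rescaling it was -0.56 and was called lower (adjusted p = 0.00188). BALB/c had 41.2, 50.3 and 44.2 RPKM in the left and 43.4, 27.7 and 39.8 RPKM in the right legs, which overlapped. The change was -0.31 ± 0.19 (adjusted p = 0.205) as deposited, and -0.83 after rescaling, called lower (adjusted p = 0.00402). Mef2d overlaps 1700113A16Rik, and since counting did not use strand, reads of the pair cannot be told apart.

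All 3 MEF2 factors were lowest among the BALB/c right libraries in library 2, and all have long transcripts, 5390 to 5957 bases. In that library genes of 5000 to 6000 bases had a median deviation of -0.26 from their mean over the right legs on the log2 scale, against 0.16 and 0.11 in libraries 1 and 3. This was looked at after the values were seen, and its part in the MEF2 values was not tested. Mef2b, the remaining family member, was at 0.174 ± 0.0459 and 0.359 ± 0.160 RPKM in C57BL/6 (SD, n = 3 libraries each) and was not called there (adjusted p = 0.0821, limma) or in BALB/c (1.13 and 1.60 RPKM, adjusted p = 0.103).

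**Figure D2:**
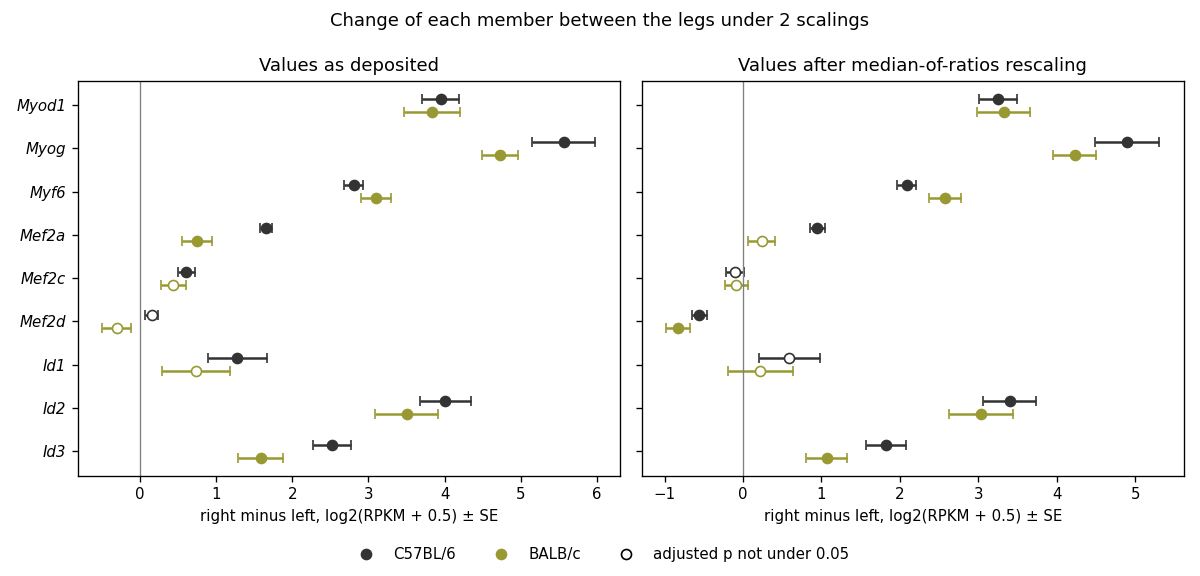
Right minus left change of each member on the log2(RPKM + 0.5) scale in both strains, with its SE, as deposited and after median-of-ratios rescaling; open points were not called. Rescaling lowers every value; Mef2c goes from 0.61 to -0.11 and Mef2d from 0.15 to -0.56 in C57BL/6, while Myog stays highest at 5.57 and 4.89.

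The Id family split as well. Its summed mean went from 18.4 to 100.5 RPKM in C57BL/6 and from 52.3 to 139 RPKM in BALB/c. Id2, an inhibitor of E protein pairing (NM_010496, mm9 chromosome 12, 25778664 to 25780957, minus strand), was the lowest member in both left legs, with 1.29, 1.47 and 0.629 RPKM in C57BL/6, from 31, 35 and 15 reads. The right C57BL/6 libraries had 15.5, 26.7 and 37.6 RPKM, all far above the left ones. The rise was 4.01 ± 0.33 (adjusted p = 3.3e-05, limma). BALB/c had 1.43, 2.18 and 2.33 RPKM in the left and 13.6, 29.9 and 49.0 RPKM in the right legs, with no overlap and a rise of 3.50 ± 0.41 (adjusted p = 0.00031).

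Id3 (NM_008321, mm9 chromosome 4, 135699737 to 135701307) had 6.39, 7.65 and 12.8 RPKM in the left and 40.5, 58.6 and 58.1 RPKM in the right C57BL/6 libraries, without overlap. The rise was 2.52 ± 0.26 (adjusted p = 8.3e-05, limma). In BALB/c it had 12.2, 25.5 and 27.1 RPKM in the left and 54.5, 59.8 and 73.5 RPKM in the right legs, also apart, and rose by 1.58 ± 0.29 (adjusted p = 0.00265), or by 1.07 after rescaling (adjusted p = 0.014). Left library 1 was the low one of its group.

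Id1 (NM_010495, mm9 chromosome 2, 152561987 to 152563146) had smaller changes than Id2 and Id3 in both strains. It had 4.87, 8.95 and 11.1 RPKM in the left and 12.3, 19.2 and 33.0 RPKM in the right C57BL/6 libraries. The lowest right library was just above the highest left one, and the rise of 1.28 ± 0.39 was called (adjusted p = 0.0199, limma). The call was lost after median-of-ratios rescaling (0.59, adjusted p = 0.238), after quantile normalization (0.62, adjusted p = 0.224), without left library 1 (0.96, adjusted p = 0.0646) and without right library 3 (0.92, adjusted p = 0.0567). In BALB/c it had 12.9, 41.4 and 31.9 RPKM in the left and 28.6, 42.2 and 67.0 RPKM in the right legs, which overlapped, a change of 0.73 ± 0.45 that was not called (adjusted p = 0.206). Id4 was at 0.188 ± 0.0265 and 0.345 ± 0.0270 RPKM in C57BL/6 (SD, n = 3 libraries each), called higher by 0.30 as deposited (adjusted p = 0.0219) but not after rescaling (0.05, adjusted p = 0.657) or without left library 1, left library 2 or right library 2 (adjusted p from 0.0503 to 0.0736), and was not called in BALB/c (adjusted p = 0.241).

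Id1 and Id3 are also abundant in endothelial cells. The summed level of the 10 endothelial markers was 61.2 to 74.3 RPKM in the left and 55.8 to 70.4 RPKM in the right legs of C57BL/6, and 99.8 to 144 and 74.5 to 117.5 RPKM in BALB/c. None of the 10 rose in either strain, 3 and 2 were called lower as deposited, and all 10 were called lower in each strain after rescaling. Of all tested genes 8.56% and 7.67% were called lower as deposited, and 26.6% and 19.2% after rescaling. In left library 1 of BALB/c, where Id1 and Id3 were lowest, the endothelial and satellite sums were also the lowest of the left legs, at 99.8 and 54.9 RPKM. So were the fibroblast, macrophage, Schwann cell and proliferation marker sums, at 606, 63.3, 47.2 and 8.85 RPKM. The smooth muscle and pericyte sum lay between the others at 1610 RPKM, and the muscle-defining sum was the highest at 134700 RPKM. Most of the smooth muscle and pericyte sum was Des, desmin, at a mean of 1543 RPKM in these left legs. That gene is also listed here as a target of the myogenic regulatory factors. The macrophage marker sum went from 9.77 to 13.4 up to 92.6 to 184.6 RPKM in C57BL/6, and from 63.3 to 107 up to 188 to 302 RPKM in BALB/c. Fibroblast markers, 10 genes, summed to 93.9 to 155 RPKM in the left and 248 to 478 RPKM in the right legs of C57BL/6, without overlap, and to 606 to 931 and 616.5 to 786 RPKM in BALB/c, where the legs overlapped. The collagen genes Col1a1, Col1a2 and Col3a1 of that list were called lower in the strain difference, where 4.33% of all tested genes were called lower. The 8 proliferation markers summed to 7.83 to 9.55 and 16.7 to 19.7 RPKM in C57BL/6 and to 8.85 to 10.6 and 16.8 to 20 RPKM in BALB/c. Only 4 and 6 of them passed the filter, and 1 was at 0 in all left C57BL/6 libraries. As deposited 4 and 3 were called higher, where 63.6% and 42.5% of all tested genes were. After rescaling it was 2 in each strain, where 28.2% and 21.8% of all tested genes were. The part of these cells in the Id values was not tested.

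Within each family the makeup shifted. Myf6 made up 84.5 ± 2.59% of the summed RPKM of the 3 myogenic regulatory factors in the left and 58.9 ± 13.7% in the right C57BL/6 legs, and 73.6 ± 4.67% and 55.5 ± 6.96% in BALB/c (SD, n = 3 libraries each). Myog took 4.14 ± 1.62% on the left and 22.8 ± 9.43% on the right in C57BL/6, where the right libraries ran from 12.7% to 31.3%. Mef2a went from 15.6 ± 0.374% to 30.5 ± 0.189% of the MEF2 sum in C57BL/6 and from 16.8 ± 1.33% to 24.4 ± 2.10% in BALB/c, with no overlap in either strain. These shares do not depend on the scale of a library. Mef2d went down in both strains, from 36.1 ± 1.38% to 24.5 ± 1.83% and from 44.1 ± 2.27% to 30.3 ± 2.13%. In BALB/c right library 2, where all 3 MEF2 levels were low, Mef2a held 22.1% and the other right libraries 26.3% and 24.7%. Id1 went from 44.5 ± 5.38% to 20.7 ± 4.29% of the Id sum in C57BL/6 and from 53.5 ± 5.80% to 32.3 ± 2.90% in BALB/c, and Id2 from 6.99 ± 3.99% to 25.8 ± 3.27% and from 4.11 ± 1.14% to 20.9 ± 6.08%. Id3 was at 48.5 ± 5.35% and 53.5 ± 7.41% in C57BL/6, and its legs overlapped.

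**Figure D3:**
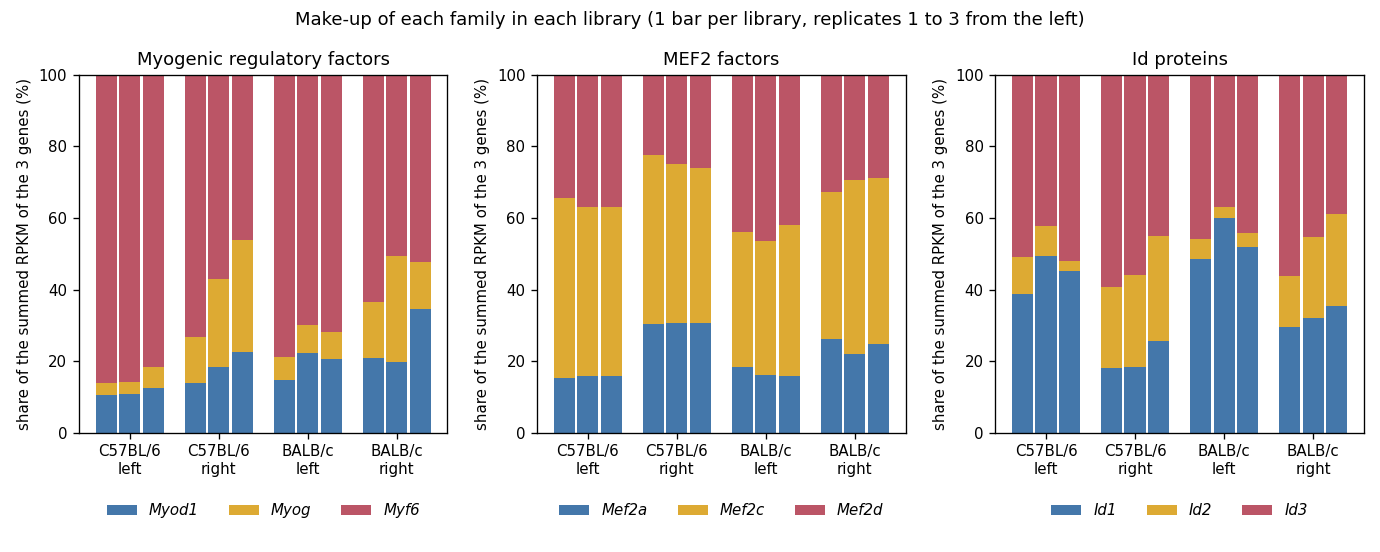
Share of each member in the summed RPKM of its family (percent), as 1 stacked bar for every library of the 4 groups; the shares of a family add up to 100% in each library. Myf6 goes from 84.5% to 58.9% on average in C57BL/6, Mef2a goes from 15.6% to 30.5% and Id1 from 44.5% to 20.7%.

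In the left leg of C57BL/6 the members ran from Myf6 and Mef2c at 64.1 and 51.7 RPKM, whose libraries overlapped, through Mef2d at 38.5 and Mef2a at 16.6 RPKM, to Id3, Myod1 and Id1 at 8.96, 8.62 and 8.32 RPKM, which overlapped, and to Myog and Id2 at 3.17 and 1.13 RPKM. The right leg had another order. Myf6 was first at 452 RPKM, followed by Myog and Myod1 at 183 and 145 RPKM, whose libraries overlapped, then Mef2c at 78.8 RPKM, and Id1 was last at 21.5 RPKM, overlapping Id2 at 26.6 RPKM. In the left leg of BALB/c every neighbour from Myf6 (53.2 RPKM) down to Myod1 (14 RPKM) overlapped, and Myog at 5.31 and Id2 at 1.98 RPKM stood apart below. The right leg placed Myf6 at 462 RPKM above Myod1 and Myog at 219 and 156 RPKM, which overlapped, and the 6 MEF2 and Id members followed between 62.6 and 29.9 RPKM with each neighbour overlapping. The tables were normalized separately, so no level was tested between strains.

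The change in BALB/c minus that in C57BL/6 was tested in 1 fit of all 12 libraries. Of the 9 members 1 was called, Mef2a, whose rise was smaller in BALB/c by -0.90 ± 0.23 (adjusted p = 0.0392, limma), against 4.33% of 14165 tested genes called lower and 1.76% higher. After median-of-ratios rescaling no member was called, against 3.52% of genes lower and 3.72% higher. The median difference of all genes was -0.14. The Mef2a difference was -0.71 after median-of-ratios rescaling and then missed the threshold (adjusted p = 0.0511), as it did without any 1 of the 6 C57BL/6 libraries (adjusted p from 0.0631 to 0.0975), without BALB/c left library 2 (adjusted p = 0.0827) and without left library 3 (adjusted p = 0.0684). Without BALB/c right library 2, the low one, it was -0.67 and called (adjusted p = 0.00919). Differences for the others were not called. They were -0.94 ± 0.43 for Id3 (adjusted p = 0.206), -0.83 ± 0.52 for Myog (adjusted p = 0.350), -0.46 ± 0.21 for Mef2d (adjusted p = 0.213) and 0.30 ± 0.24 for Myf6 (adjusted p = 0.475). Id3 was called without BALB/c left library 1 (-1.29, adjusted p = 0.0418). Id1, Id2, Mef2c and Myod1 had differences of -0.55 ± 0.67, -0.50 ± 0.59, -0.17 ± 0.20 and -0.11 ± 0.49, with adjusted p-values from 0.619 to 0.912.

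The E proteins, partners of the myogenic regulatory factors, had smaller changes than any of the 3 factors. All 3 E proteins were called higher in C57BL/6 and 2 of 3 in BALB/c, but 1 and none after rescaling. For all tested genes the shares called higher were 63.6% and 42.5% as deposited, and 28.2% and 21.8% after rescaling. Tcf12, the E protein HEB, went from 3.30 ± 0.136 to 9.70 ± 0.880 RPKM in C57BL/6 (SD, n = 3 libraries each), a rise of 1.42 ± 0.09 (adjusted p = 1e-05, limma), and was the one still called there after rescaling (0.76). In BALB/c Tcf12 rose by 0.78 ± 0.20 (adjusted p = 0.0133), and 0.30 after rescaling was not called (adjusted p = 0.166), nor was the change without left library 3 (adjusted p = 0.0501) or right library 3 (adjusted p = 0.0528). Tcf3, which encodes E12 and E47, rose by 0.66 ± 0.07 and 0.64 ± 0.19 as deposited, and the rescaled changes of 0.0046 and 0.14 were not called. In BALB/c the Tcf3 call was also lost without left library 1 or 3 or right library 1 or 3 (adjusted p from 0.0609 to 0.0737). Of 14 repressors of helix-loop-helix and myogenic factors, 9 were called higher and 1 lower in C57BL/6 and 6 and 1 in BALB/c. These counts of higher calls were close to the 63.6% and 42.5% of all tested genes. After rescaling the counts were 4 higher and 3 lower, and 2 and 3, where 28.2% and 21.8% of all tested genes were called higher. Called lower were 8.56% and 7.67% of all tested genes as deposited, and 26.6% and 19.2% after rescaling. Hes1, the Notch effector, had the largest rise at 2.61 ± 0.53 (adjusted p = 0.003) and 1.70 ± 0.54 (adjusted p = 0.0302), where the latter was lost after rescaling (adjusted p = 0.0954) and without BALB/c left library 1 (adjusted p = 0.0839), right library 2 (adjusted p = 0.0541) or right library 3 (adjusted p = 0.0806). Snai1, a repressor that competes for E-boxes, rose by 1.96 ± 0.39 and 1.46 ± 0.21, and Mdfi, which holds myogenic factors in the cytoplasm, by 1.37 ± 0.17 and 0.98 ± 0.14. Bhlhe41 was the 1 called lower as deposited, by -0.38 ± 0.11 (adjusted p = 0.0133) and -0.54 ± 0.17 (adjusted p = 0.0295), a call that 4 of 6 omissions of 1 library ended in BALB/c. After rescaling its changes were larger, at -1.08 (adjusted p = 0.00016) and -1.04 (adjusted p = 0.00324).

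Of 21 tested cofactors and related factors of the myogenic network, 14 were called higher and 3 lower in C57BL/6, and 8 and 2 in BALB/c, with 5 and 7, and 2 and 6, after rescaling. The counts of higher calls were close to or below the shares over all tested genes, 63.6% and 42.5% as deposited and 28.2% and 21.8% after rescaling. For lower calls the shares over all tested genes were 8.56% and 7.67% as deposited, and 26.6% and 19.2% after rescaling. Tead4, a TEAD factor whose gene MYOD1 and MYOG bind in myoblasts, had the largest rise, from 1.21 ± 0.309 to 12.8 ± 0.246 RPKM in C57BL/6 (2.98 ± 0.14, adjusted p = 3.2e-06, limma) and from 1.08 ± 0.384 to 4.43 ± 0.282 RPKM in BALB/c (1.67 ± 0.21, adjusted p = 0.00043). Its rise was smaller in BALB/c by -1.31 ± 0.26 (adjusted p = 0.0162). Mamstr, the MEF2 coactivator MASTR, rose by 1.38 ± 0.14 in C57BL/6 (adjusted p = 7.6e-05), had a change of -0.19 ± 0.14 in BALB/c (adjusted p = 0.290), and differed between the strains by -1.57 ± 0.20 (adjusted p = 0.00225). Srf, serum response factor, fell by 0.75 ± 0.09 and 0.76 ± 0.15, and Eya1, a transcriptional coactivator, by 0.47 ± 0.10 and 0.78 ± 0.14. Vgll4, which competes for TEAD factors, fell by 1.23 ± 0.14 in C57BL/6 (adjusted p = 0.00014) and had a change of -0.61 ± 0.24 in BALB/c that was not called (adjusted p = 0.0653).

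Regulators of MEF2 activity moved in both directions. Of 21 tested, 8 rose and 8 fell in C57BL/6, and 9 rose and 6 fell in BALB/c, and after rescaling 6 and 12, and 4 and 11. Among all tested genes 63.6% and 42.5% were called higher as deposited, and 8.56% and 7.67% lower. With rescaling it was 28.2% and 21.8% higher, and 26.6% and 19.2% lower. Hdac4, a class IIa deacetylase that binds and represses MEF2 factors, rose from 2.78 ± 0.262 to 18.3 ± 1.09 RPKM in C57BL/6 (2.52 ± 0.09, adjusted p = 1.1e-06, limma) and from 3.14 ± 0.377 to 21.4 ± 0.0927 RPKM in BALB/c (2.60 ± 0.13, adjusted p = 1.3e-05). Hdac9, another member of that class, went the other way, by -1.01 ± 0.13 and -1.43 ± 0.19. Sik1, a kinase that drives class IIa deacetylases out of the nucleus, rose by 3.69 ± 0.22 and 3.28 ± 0.54. The calcium/calmodulin kinases diverged: Camk2a fell from 159 ± 7.10 to 18.2 ± 1.79 RPKM in C57BL/6 and from 116 ± 18.1 to 12.8 ± 2.47 RPKM in BALB/c (-3.10 ± 0.09 and -3.14 ± 0.18), and Camk2d rose by 2.30 ± 0.15 and 2.26 ± 0.22. Map2k6, which activates the p38 kinases that phosphorylate MEF2, fell by 1.73 ± 0.17 and 2.65 ± 0.25.

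Of 22 genes known as targets of the myogenic regulatory factors, 15 rose and 4 fell in C57BL/6 with a median change of 2.78, and 17 rose and 2 fell in BALB/c with a median of 2.16. After rescaling the counts were 13 and 5, and 14 and 3. As deposited, 63.6% and 42.5% of all tested genes were called higher and 8.56% and 7.67% lower. Rescaled, the shares were 28.2% and 21.8% higher and 26.6% and 19.2% lower. Chrng, the fetal gamma subunit of the acetylcholine receptor, went from 0.0650 ± 0.0422 to 154 ± 4.78 RPKM in C57BL/6 and from 0.0577 ± 0.0769 to 102 ± 30.9 RPKM in BALB/c, changes of 8.10 ± 0.08 and 7.48 ± 0.23. Chrnd, the delta subunit, rose by 8.04 ± 0.20 and 6.72 ± 0.34. Cdkn1a, the cell cycle inhibitor p21, rose by 6.98 ± 0.16 and 5.76 ± 0.26, and Tnnt2, the embryonic and cardiac troponin T, by 5.92 ± 0.45 and 7.01 ± 0.45. Not all embryonic genes of the list rose. Actc1, cardiac actin, fell from 713 ± 130 to 31.0 ± 17.0 RPKM in C57BL/6 and from 162 ± 53.1 to 38.0 ± 5.84 RPKM in BALB/c, and Myh8, perinatal myosin, fell by 2.09 ± 0.36 in C57BL/6 (adjusted p = 0.00122, limma), with a change of -0.33 ± 0.37 in BALB/c (adjusted p = 0.492). Between the strains 3 targets were called higher and 1 lower in BALB/c, namely Actc1 (2.58 ± 0.45), Myl4 (3.30 ± 0.44), Trim63 (0.97 ± 0.19) and Myh3 (-2.75 ± 0.41). The last 3 were named after their values were seen. In that comparison 1.76% of all tested genes were called higher and 4.33% lower.

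Of 15 genes known as MEF2 targets, 7 rose and 7 fell in C57BL/6 and 6 rose and 8 fell in BALB/c, and 6 and 8, and 3 and 8, after rescaling. The shares over all tested genes were 63.6% and 42.5% higher and 8.56% and 7.67% lower as deposited. They were 28.2% and 21.8% higher and 26.6% and 19.2% lower after rescaling. Jun rose by 2.53 ± 0.13 and 1.95 ± 0.28. Nr4a1, an orphan nuclear receptor induced by calcium, fell by 2.83 ± 0.31 and 2.91 ± 0.41, and the glycolytic enzyme gene Pgam2 by 1.51 ± 0.10 and 1.41 ± 0.28. Ckm, muscle creatine kinase, stands in both target lists and fell by 2.41 ± 0.22 in C57BL/6 (adjusted p = 4.6e-05, limma) and 1.93 ± 0.42 in BALB/c (adjusted p = 0.00564, and 0.0568 with no filter on low genes). Des, desmin, also stands in both. It rose by 1.18 ± 0.09 in C57BL/6 (adjusted p = 2.7e-05) and was still called after rescaling (0.45, adjusted p = 0.00502), and by 1.20 ± 0.24 in BALB/c (adjusted p = 0.00366), which was not called after rescaling (0.68, adjusted p = 0.137). Myoz2, calsarcin 1, rose by 4.16 ± 0.24 in C57BL/6 (adjusted p = 7.4e-06), had a change of 1.00 ± 0.45 in BALB/c (adjusted p = 0.0974), and differed between the strains by -3.16 ± 0.57.

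**Figure D4:**
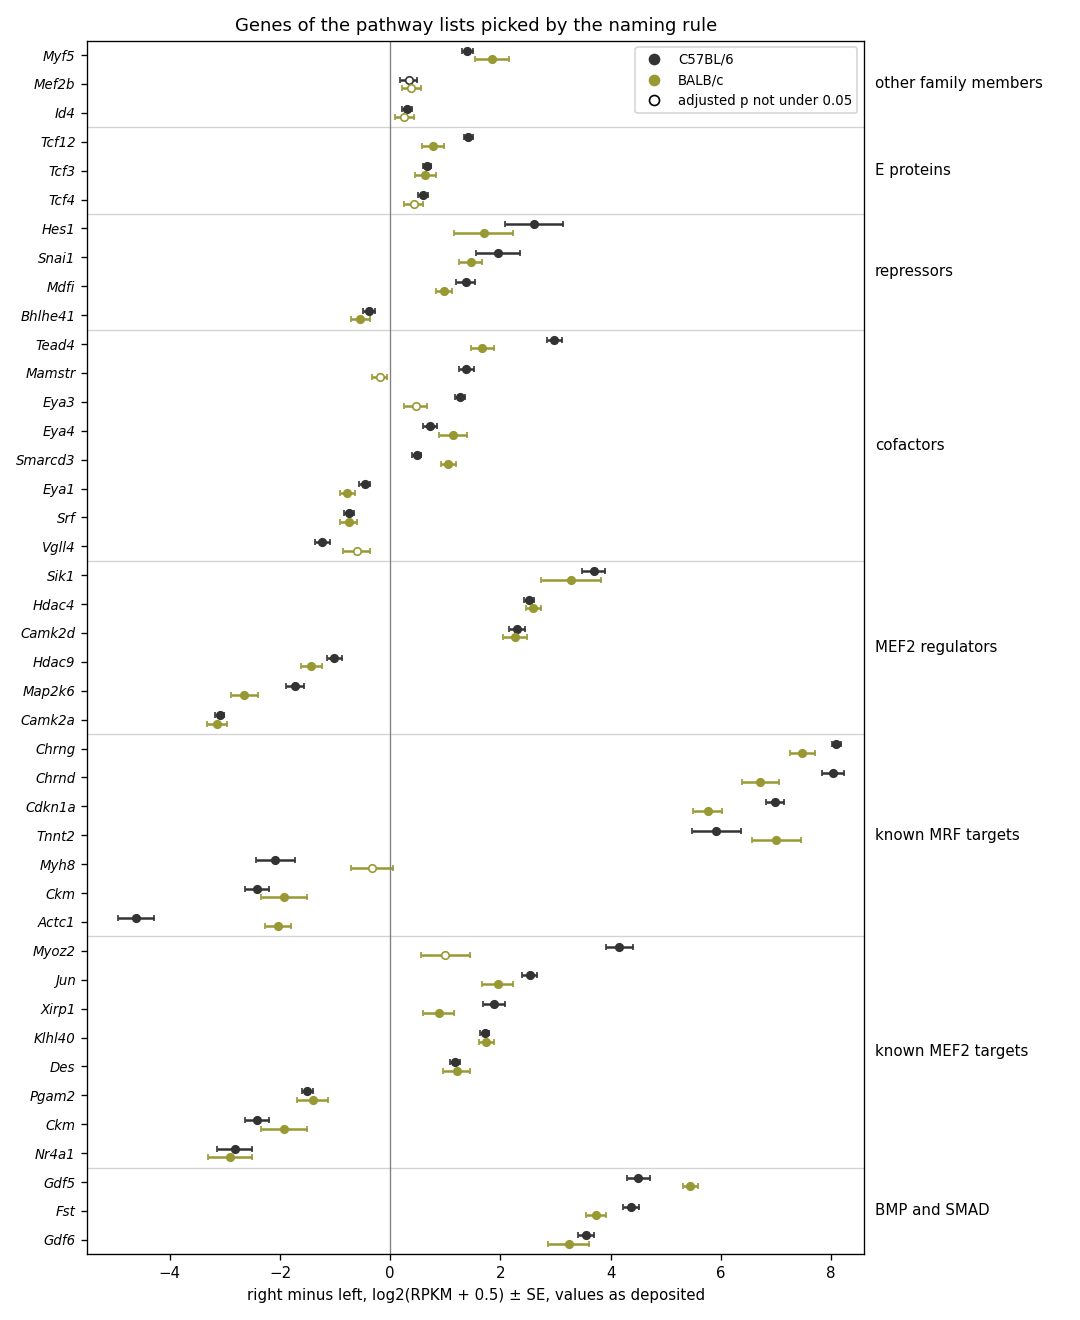
Change between the legs, log2(RPKM + 0.5) with its SE, of the genes the naming rule took from the partner, regulator, target and BMP lists, by strain; open points were not called. Those of the targets of the myogenic regulatory factors span -4.61 (Actc1) to 8.10 (Chrng) in C57BL/6, and the E proteins 0.59 to 1.42.

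The BMP axis, which controls Id genes, held 2 ligands that were at or near 0 reads in the left legs. Of 21 tested genes 12 were called higher in C57BL/6 and 10 in BALB/c, and none lower. After rescaling 6 were called higher and 5 lower in each strain. Over all tested genes 63.6% and 42.5% were called higher as deposited, and 28.2% and 21.8% after rescaling. The shares called lower were 8.56% and 7.67% as deposited, and 26.6% and 19.2% after rescaling. Gdf5, a BMP ligand of denervated muscle, had 0 reads in all 3 left libraries of C57BL/6 and 327, 616 and 539 reads in the right ones. The right sum was at least 494-fold higher than a floor of 3 reads over the left group. Gdf5 in BALB/c was at 0, 4 and 1 reads on the left against 1017, 987 and 1027 reads on the right. Gdf6, a close relative, went from 0, 1 and 2 to 408, 294 and 433 reads in C57BL/6 and from 0, 1 and 4 to 323, 142 and 554 reads in BALB/c. Fst, follistatin, which binds activins and BMPs, rose from 0.230 ± 0.127 to 14.5 ± 1.45 RPKM (4.37 ± 0.15, adjusted p = 1e-06, limma) and from 1.25 ± 0.337 to 22.7 ± 2.25 RPKM (3.74 ± 0.18, adjusted p = 1.1e-05). Chrd, the BMP antagonist chordin, was the 1 gene of the list called between the strains, with rises of 3.52 ± 0.11 and 2.48 ± 0.15 and a difference of -1.03 ± 0.18. In that comparison 4.33% of all tested genes were called lower and 1.76% higher.

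Genes whose values lay nearest to a member over all 12 libraries were found by Euclidean distance on the log2(RPKM + 0.5) scale, each library taken relative to the left mean of its strain, among 10217 genes whose mean reached 1 RPKM in both tables. Nearest to Myog were Ifitm6, Ass1 and Ttc9, at distances of 1.80, 1.92 and 1.97. Nearest to Myod1 were Rnase1 and Tubb2a at 1.30 and 1.38, followed by Id2, another member, at 1.42. Mef2c lay in a crowd, with Ankle2, Ipo8 and Akap11 at 0.29, 0.30 and 0.30 and changes of 0.52 to 0.71 in C57BL/6, near the 0.52 of the median gene. Nearest to Id1 were Otud1, Ier2 and Jund, at 1.02, 1.04 and 1.05.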

How the data were processed

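Polyadenylated RNA of 12 gastrocnemius libraries was analysed, 3 for each strain and leg, grouped from the labels. The authors deposited RPKM values in 1 table per strain. Per the file headers, HOMER counted exon reads without regard to strand against its mm9 annotation and condensed each gene to 1 transcript. The column names say FPKM where the recorded command asks for RPKM. HISAT2 and HOMER, both without a version, and the builds GRCm38 and mm10 appear in the submitters' processing notes. Only 2722 of 24555 genes found in a GRCm38 table under the same symbol and chromosome overlapped their position there, so gene positions are given in mm9. Which build served for alignment was not given in the sources used here.

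Multiplying RPKM by transcript length and a scaling total of 18132600 to 19282900 reads gave whole reads, within 0.1 read, for 99.7% to 99.8% of values. A floor of 3 reads covers counting error only.

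Values were taken as log2(RPKM + 0.5), which makes changes of low genes look smaller. The legs were compared with limma 3.58.1 (R 4.3.3, eBayes with a trend, Benjamini-Hochberg adjustment over all tested genes) in genes whose mean over a table's 6 libraries reached 0.1 RPKM. The script was tested on simulated data. The tables were normalized separately, so no level was tested across strains. In BALB/c the last library of each leg carries the code 4 in its column and 3 in its title.

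The members and gene lists were chosen with earlier results of these data known. The rule named all members, the remaining genes of each family, up to 3 called genes per list, direction and strain with the largest change, and the 3 nearest genes to each of 4 members; not all genes it takes are printed. Alternatives were pseudocounts of 0.1 and 1, a filter of 1 RPKM or none, 3 other scalings, the replicate number as a block, no trend, limma-voom on recovered reads, a spread from all 12 libraries and leaving out each library.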

Additional observations from a re-analysis of the deposited data

Results flagged for a closer look

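The change of Mef2a, a MEF2 factor, differed between the strains. It rose by 1.66 ± 0.08 in C57BL/6 and by 0.75 ± 0.20 in BALB/c on the log2(RPKM + 0.5) scale, a difference of -0.90 ± 0.23 (adjusted p = 0.0392, limma). The call held in 12 of 22 alternatives. It was lost with median-of-ratios rescaling (-0.71, adjusted p = 0.0511), with the replicate number as a block (adjusted p = 0.0588), without any 1 of the 6 C57BL/6 libraries (adjusted p from 0.0631 to 0.0975) and without BALB/c left library 2 (adjusted p = 0.0827) or 3 (adjusted p = 0.0684). Without BALB/c right library 2, the low one of its group, the difference was -0.67 (adjusted p = 0.00919).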

How the results depend on the processing

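Myod1, Myog, Myf6, Id2 and Id3 kept their direction and their call in both strains under all 17 alternatives of each strain, and Mef2a did so in C57BL/6. Across alternatives, 464 results of members were alike in direction and call, 19 lost a call, 8 gained one and 13 reversed; for list genes these were 1124, 37, 1 and 4. With median-of-ratios factors, Mef2c was at -0.11 and Mef2d at -0.56 in C57BL/6, and Mef2c at -0.084 in BALB/c. Quantile normalization gave -0.030, -0.44 and -0.23. In C57BL/6, Tcf4 was at -0.037 and -0.070 under the same settings, and quantile normalization put Id4 at -0.10 and Mef2b at -0.047. The strain difference, -0.11 for Myod1 and -0.17 for Mef2c as deposited, was 0.076 and 0.022 with median-of-ratios factors. For Myod1 it ran from -0.53 to 0.14 over the omissions of 1 library and was above 0 without C57BL/6 left library 1 or right library 3, or BALB/c left library 3, right library 1 or right library 2.

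Among members, 1 was called lower in each strain with median-of-ratios factors and with quantile normalization, and 0 as deposited. Over all genes, median-of-ratios factors gave 4080 higher and 3845 lower in C57BL/6 (9258 and 1246 as deposited) and 3221 and 2831 in BALB/c (6302 and 1136). Quantile normalization gave 3848 and 4231, and 3086 and 3022. Rescaling to a common sum gave 3936 higher in BALB/c. In the strain difference, 249 genes were higher as deposited, 524 with median-of-ratios factors, 92 with a common sum and 415 with quantile normalization, and 0 members were called lower with median-of-ratios factors. Leaving out 1 library gave 81 to 505 genes higher, 226 to 1028 lower and 0 to 2 members lower, where 613 genes and 1 member were lower with all 12.

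Deviations of same-numbered legs had correlations of 0.18, 0.10 and 0.01 in C57BL/6 and 0.01, 0.07 and 0.24 in BALB/c. Those of different-numbered legs ran from -0.17 to 0.10 in C57BL/6 and from -0.19 to 0.11 in BALB/c. The ranges overlap and the labels do not say whether the numbers pair the legs, so these values cannot settle it. The main fits did not pair the samples. With the replicate number as a block, 8 members were higher in each strain, with Mef2c (adjusted p = 0.0475) and Id1 (adjusted p = 0.0451) added in BALB/c, the Mef2a strain difference had an adjusted p of 0.0588, so 0 members were lower there, and 9144 and 5782 genes were higher in the right legs. BALB/c Mef2c was also called with a filter of 1 RPKM (adjusted p = 0.0460) and a spread from all 12 libraries (adjusted p = 0.0181).

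Shares computed from reads, which weight long transcripts more, moved by over 1 SD in 13 of 36 cases. In C57BL/6 they gave Myf6 79.6% and Myod1 15.8% on the left and Myod1 23.8% on the right, Mef2a 15.1% and 29.6%, Mef2c 50.6% and 47.2%, Mef2d 34.3% on the left and Id2 31.8% on the right. In BALB/c they gave Myf6 66.6% and 48.1%, and Myod1 25.6% and Id2 5.47% on the left.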
